A study of Mus musculus with 20 samples.

Results

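The 10 microRNAs (miRNAs) described here are the mature products of 2 related mouse gene clusters, miR-17-92 and miR-106b-25. They were chosen by name: mmu-miR-17-5p, mmu-miR-18a-5p, mmu-miR-19a-3p, mmu-miR-20a-5p, mmu-miR-19b-3p and mmu-miR-92a-3p from miR-17-92, and mmu-miR-106b-5p, mmu-miR-106b-3p, mmu-miR-93-5p and mmu-miR-25-3p from miR-106b-25, written without the species prefix from here on. All 10 were present among the 1481 mature miRNA names in the deposited tables, and each had between 75 and 31132 reads in every library, so no member was lost to low counts.

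The libraries were small RNA libraries of primary cortical neurons, isolated from mouse embryos at embryonic day 15 and grown for 7 days in Neurobasal medium with B27 supplement. The neurons were wild type (WT) or knockout (KO) for ciRS-7, a circular RNA of the brain also called Cdr1as, and every sample of both genotypes carries the strain label C57BL/6N-Cdr1asem1Nikr. Cultures then spent 12 h at 37 °C and 5% CO2 under 1 of 2 conditions. Normoxic cultures had medium to which 25 mM glucose and 0.2 mM pyruvate had been added. Cultures in oxygen-glucose deprivation (OGD), a model of ischaemia, were kept at 1% O2 in medium to which neither had been added. The 4 groups (WT normoxia, WT OGD, KO normoxia and KO OGD) had 5 biological replicates each, 20 libraries in all. The labels do not say whether the embryos of a culture were pooled. The ciRS-7 RNA itself is not a miRNA and was not measured in these libraries, so the genotype labels were not checked against it.

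A miRNA guides an Argonaute protein to messenger RNAs, mostly by pairing of its seed, the bases near its 5′ end, and thereby lowers their translation and stability. The miR-17-92 cluster is transcribed from its own host gene, is a target of MYC, and is known for promoting proliferation and survival. In the developing cortex miR-17-92 is known from neural progenitors, where it favours expansion over differentiation. The miR-106b-25 cluster is a paralogue that lies inside Mcm7, a gene for a subunit of the replicative helicase, and is known as a target of E2F factors.

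The mature sequences of the 10 members are shown because their seeds, not their cluster, sort them into target families. Bases 2 to 8, the seed, are in capitals, and each sequence runs 5′ to 3′ as RefSeq gives it for GRCm38.p6.
miR-17-5p: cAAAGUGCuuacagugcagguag
miR-20a-5p: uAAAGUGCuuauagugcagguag
miR-106b-5p: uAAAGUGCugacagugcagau
miR-93-5p: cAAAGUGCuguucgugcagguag
miR-18a-5p: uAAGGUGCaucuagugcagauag
miR-19a-3p: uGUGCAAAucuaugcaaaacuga
miR-19b-3p: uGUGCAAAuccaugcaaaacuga
miR-92a-3p: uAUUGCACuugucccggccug
miR-25-3p: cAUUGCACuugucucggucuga
miR-106b-3p: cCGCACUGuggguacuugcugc

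The members carried 5 seeds. AAAGUGC was shared by 4 members from both clusters, miR-17-5p and miR-20a-5p of the first and miR-106b-5p and miR-93-5p of the second. AUUGCAC was likewise shared across clusters, by miR-92a-3p and miR-25-3p. GUGCAAA belonged to miR-19a-3p and miR-19b-3p, while AAGGUGC and CGCACUG each had 1 member, miR-18a-5p and miR-106b-3p. Counting from 1 at the 5′ end and naming the base of the first miRNA first, miR-19a-3p and miR-19b-3p differed by U11C alone. The substitutions C1U and C12U separated miR-17-5p from miR-20a-5p, and C14U and C18U, beside U1C, separated miR-92a-3p from miR-25-3p over 21 bases.

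The loci were read from the GENCODE annotation of GRCm38, called mm10 in the submitters' processing notes. The 6 hairpins of miR-17-92 spanned 836 bases, chr14:115043671-115044506 on the plus strand, within an exon of the long intergenic noncoding RNA gene Mir17hg (chr14:115042879-115046727). The 3 hairpins of miR-106b-25 spanned 498 bases, chr5:138165321-138165818 on the minus strand, within the protein-coding gene Mcm7 (chr5:138164583-138172422). Mir106b was intronic in all 10 annotated Mcm7 transcripts, while Mir93 and Mir25 each lay in an exon of 1 transcript. Mature miR-19b-3p and miR-92a-3p are also encoded, letter for letter, by Mir19b-2 (chrX:52741983-52742066) and Mir92-2 (chrX:52741838-52741928) of the related miR-106a-363 cluster, so reads of these miRNAs cannot be split between the 2 loci. How reads shared by near-identical miRNAs were counted is not given in the sources used here.

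The Mir106b hairpin gives rise to a pair of members, one from each arm. It is printed because the balance of these arms is described below, where its tests missed the threshold. The 2 mature arms are in capitals, miR-106b-5p first.
Mir106b: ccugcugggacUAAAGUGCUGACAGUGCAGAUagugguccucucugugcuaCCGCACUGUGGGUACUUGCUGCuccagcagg

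Libraries held 1160582 to 12477032 reads, and OGD libraries were shallower than normoxic ones: 1160582 to 4374002 against 2492065 to 9117862 reads in WT, and 1811589 to 3119212 against 5884616 to 12477032 in KO. Each member's level is given as CPM, its reads scaled to the authors' effective library size, and fold changes are on the scale of log2(CPM + 0.5). Along the first principal component of 423 features, which held 83.0% of the variance, the library labelled WT normoxia replicate 5 lay at -0.88, between the other WT normoxia libraries (-14.46 to -13.09) and the OGD libraries (7.00 to 15.05). It was also the shallowest normoxic library, and several estimates are also given without it. All 5 neuronal marker miRNAs were detected in every library. Their summed level was 299243 to 386492 CPM in WT normoxia, 290015 to 356768 in WT OGD, 304036 to 345388 in KO normoxia and 288192 to 355184 in KO OGD. Most of this sum was miR-9-5p (266052 ± 26858 CPM in WT normoxia), and the lowest marker was miR-138-5p (233 ± 15.7 CPM there). The sums were 0.867 to 5.59 CPM over all libraries for 5 blood and immune markers and 269 to 393 CPM for 2 endothelial markers. For 3 muscle markers they were 33.6 to 58.7 CPM, and the liver marker miR-122-5p was at 38.1 to 64.5 CPM, near the levels of the lowest members given below. No marker was at 0 in every library of a group.

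The members differed widely in level, and the order was nearly the same in all groups. All are 21 to 23 bases long, so no length correction was made. The order is one of reads, and how evenly the library preparation captured unlike sequences was not tested. In WT normoxia, miR-25-3p was highest at 2769 ± 555 CPM (SD, n = 5, as for all group values that follow), ahead of miR-20a-5p at 2152 ± 499 CPM, which it exceeded in 5 of 5 libraries although the ranges overlapped. miR-17-5p (1261 ± 311 CPM) and miR-93-5p (1261 ± 307 CPM) could not be ordered, since miR-17-5p was the higher in 2 of 5 libraries. Then followed miR-106b-3p at 609.9 ± 63.0 CPM and miR-106b-5p at 334 ± 78.3 CPM, whose ranges did not overlap, and miR-19b-3p at 298 ± 84.02 CPM, which overlapped miR-106b-5p. At the low end were miR-19a-3p (61.3 ± 17.9 CPM) and miR-92a-3p (59.0 ± 4.64 CPM), again not separable, and miR-18a-5p at 41.3 ± 5.68 CPM. The 10 members together made up 0.870% ± 0.136 of WT normoxia reads.

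The levels in KO normoxia followed the same sequence except that miR-19b-3p (353 ± 69.8 CPM) and miR-106b-5p (346 ± 45.5 CPM) changed places with overlapping ranges. After OGD, miR-93-5p stood above miR-17-5p in 5 of 5 libraries of each genotype, at 1876 ± 209 against 1475 ± 208 CPM in WT and 2196 ± 316 against 1829 ± 231 CPM in KO. In KO OGD, miR-20a-5p (3097 ± 551 CPM) also had the highest mean of all, above miR-25-3p (2934 ± 273 CPM), but in only 3 of 5 libraries.

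**Figure D1:**
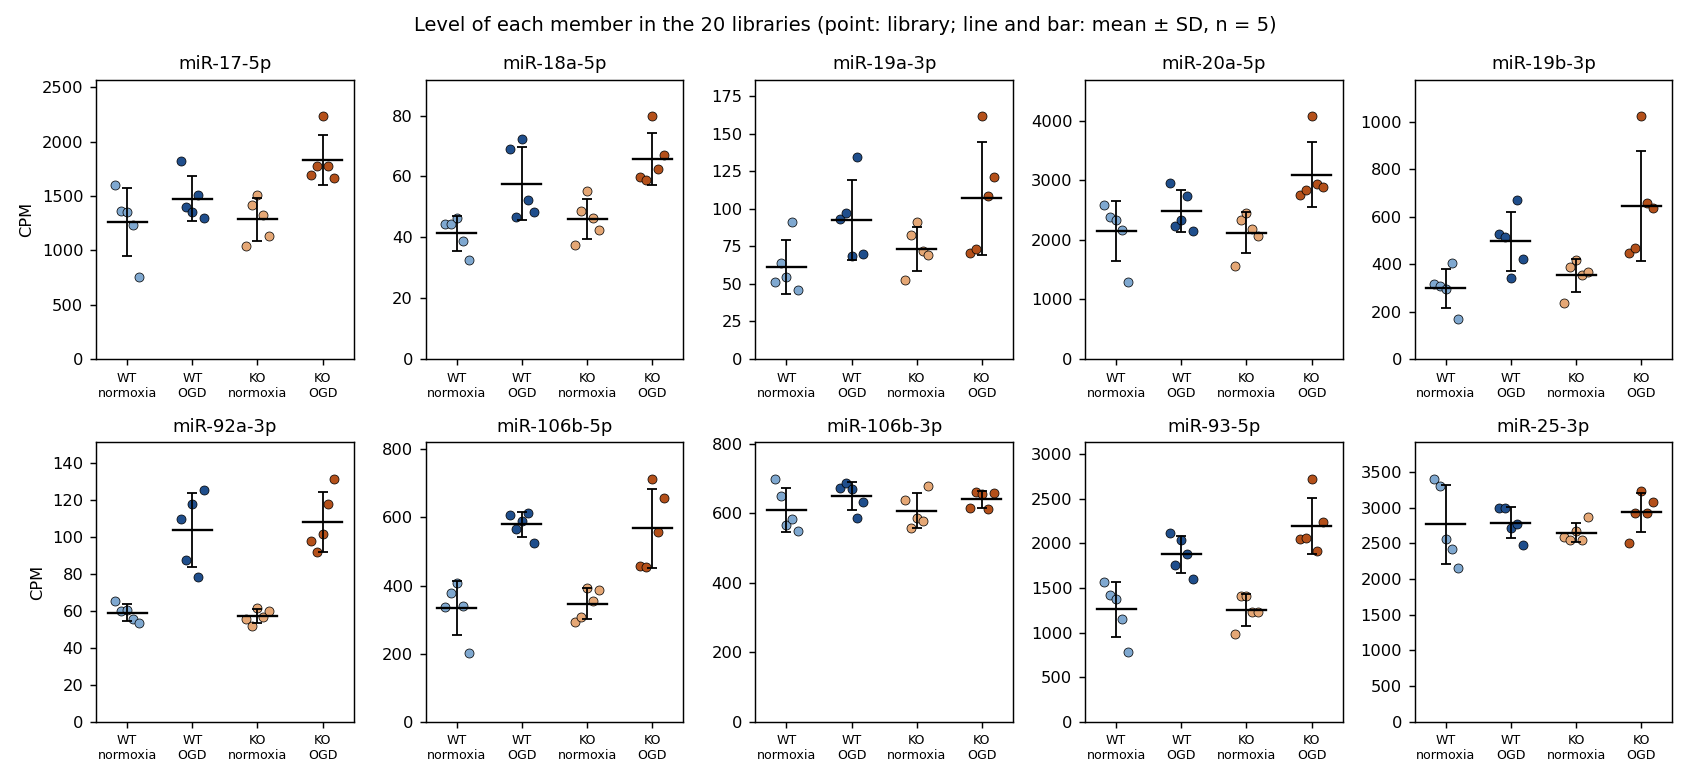
Level of each member in CPM (vertical axis, from 0) in the 4 groups (horizontal axis), with 1 point per library and the mean ± SD of 5 libraries. The OGD points of miR-92a-3p, miR-106b-5p and miR-93-5p lie above all normoxia points in both genotypes, while those of miR-106b-3p and miR-25-3p overlap them.

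The first comparison asks how the members respond to OGD in WT neurons. At the authors' library scaling, 6 of 10 members rose and 0 fell: miR-106b-5p, miR-92a-3p, miR-93-5p, miR-19b-3p, miR-19a-3p and miR-18a-5p, by 1.38- to 1.78-fold. Of all 1478 features in that table, 18.7% were called higher and 4.4% lower, and of the 307 with a mean of at least 5 log2 CPM, the abundance class of the members, 30.9%. The groups did not overlap for 4 of 10 members, against 13.5% of all features and 25.4% of the abundant ones. The median log2 fold change was 0.53 over the members, 0.18 over the abundant features and 0.32 over all features. A call is an adjusted p under 0.05. The test was limma (moderated linear model with a mean-variance trend, two-sided, Benjamini-Hochberg over all features of a table), here and in every comparison of levels. Fewer cells of a kind and less RNA per cell cannot be told apart in these bulk cultures, and the 5 neuronal markers differed from each other in WT. miR-124-3p stood at 3392 ± 491 CPM in normoxia and 5628 ± 534 CPM after OGD, miR-138-5p at 233 ± 15.7 and 454 ± 66.4 CPM, and miR-137-3p at 508 ± 96.4 and 621 ± 46.7 CPM. By contrast miR-128-3p stood at 60839 ± 13671 and 40381 ± 3761 CPM, and miR-9-5p at 266052 ± 26858 and 261510 ± 26488 CPM. The part of these markers in the members' levels was not tested.

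miR-106b-5p, a member of the miR-17 seed family known to repress the cell cycle inhibitor Cdkn1a, rose in WT and in KO neurons. In replicates 1 to 5 of WT normoxia it was at 337, 378, 408, 341 and 203 CPM, and in those of WT OGD at 606, 566, 589.5, 613 and 524 CPM. Each OGD library was above each normoxia library, and the lowest value was that of WT normoxia replicate 5. The log2 fold change was 0.83 ± 0.15 (SE), with an adjusted p of 0.000378 in limma; without WT normoxia replicate 5 it was 0.66 (adjusted p of 2.26e-05). The KO libraries were at 293, 306, 392, 355 and 387 CPM in normoxia and at 457, 455, 713, 557 and 658 CPM after OGD. They did not overlap either, and the log2 fold change was 0.70 ± 0.13 (adjusted p of 0.000677).

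miR-93-5p, from the neighbouring hairpin and with the same seed, moved in the same direction. WT normoxia libraries were at 1570.0, 1420.0, 1378, 1155 and 780.5 CPM, and WT OGD libraries at 2116, 1758, 2034, 1875 and 1596 CPM. The 2 sets did not overlap, with a log2 fold change of 0.61 ± 0.15 (adjusted p of 0.00663), or 0.44 without WT normoxia replicate 5. The call held with each replicate left out (adjusted p of 0.00382 to 0.0457 in limma). In KO neurons the levels went from 981, 1407, 1408, 1232 and 1231 CPM to 2044, 2065, 2723, 1912 and 2234 CPM, again without overlap. This was a log2 fold change of 0.81 ± 0.11 (adjusted p of 3.19e-05).

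The other 2 products of the same primary transcript did not pass the test. miR-106b-3p comes from the opposite arm of the Mir106b hairpin. It was at 699, 651, 568, 583 and 549 CPM in WT normoxia and 672, 687, 671, 585 and 633 CPM in WT OGD, then at 639, 559, 586, 577 and 679 CPM in KO normoxia and 615, 661, 655, 611 and 658 CPM in KO OGD. The groups overlapped throughout, and the log2 differences were 0.09 in WT (95% interval -0.12 to 0.31) and 0.08 in KO (-0.09 to 0.24). Without WT normoxia replicate 5, the WT difference was 0.058.

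miR-25-3p, which shares its seed with miR-92a-3p and is known to repress the pro-apoptotic gene Bcl2l11, behaved alike. Its WT values were 3405, 3304, 2561, 2422 and 2155 CPM in normoxia and 2992, 3000.3, 2711, 2772 and 2479 CPM after OGD. In KO they were 2589, 2552, 2678, 2554 and 2867 CPM against 2502, 2926, 3233, 2927 and 3083 CPM. All WT OGD values lay within the WT normoxia range. In KO, 4 of 5 OGD libraries were above every normoxia library and 1 was below all of them. The log2 differences were 0.03 (-0.22 to 0.28) and 0.14 (-0.02 to 0.31). The WT difference turned to -0.054 without WT normoxia replicate 5 and was also under zero without replicate 4 of that group. These intervals lie below the estimates for miR-106b-5p and miR-93-5p in each genotype. That is no test of a difference between the miRNAs, and the ratio of miR-25-3p to miR-93-5p, tested below, missed the threshold.

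Within miR-17-92, miR-92a-3p had the smallest adjusted p in both genotypes at the authors' scaling. WT normoxia libraries were at 65.5, 60.1, 60.4, 55.5 and 53.6 CPM and WT OGD libraries at 109.6, 87.6, 118, 78.6 and 125 CPM. KO normoxia libraries were at 55.5, 51.8, 61.6, 56.8 and 60.1 CPM and KO OGD libraries at 97.9, 91.9, 102, 118 and 132 CPM. No OGD value of either genotype reached down to a normoxia value of its genotype. The log2 fold changes were 0.79 ± 0.15 in WT (adjusted p of 0.000494) and 0.91 ± 0.11 in KO (adjusted p of 1.52e-05). Its seed partner miR-25-3p, 3 substitutions away, differed by 0.03 in WT at that scaling, with a sign that turned as given above.

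miR-19a-3p and miR-19b-3p, the GUGCAAA pair, both passed the test in WT neurons, and miR-19b-3p also passed in KO neurons. miR-19b-3p was at 315, 306, 294, 404 and 169 CPM in WT normoxia and 528, 517, 343, 671 and 421 CPM in WT OGD, where replicate 3 fell inside the normoxia range. Its log2 fold change was 0.75 ± 0.20 (adjusted p of 0.00940), and 0.56 without WT normoxia replicate 5. The KO libraries were at 236, 389, 418, 354 and 366 CPM and then at 447, 467, 1025, 659 and 639 CPM, without overlap, a log2 fold change of 0.83 ± 0.19 (adjusted p of 0.00399). When all libraries were thinned to equal depth, the miR-19b-3p estimates were 0.79 in WT and 0.81 in KO, but neither passed (adjusted p of 0.0564 and 0.0569 in limma). miR-19a-3p ranged from 45.7 to 91.1 CPM (median 54.7) in WT normoxia and from 68.8 to 134 CPM (median 92.9) in WT OGD, with a log2 fold change of 0.59 ± 0.20 (adjusted p of 0.0409). In WT the call of miR-19a-3p was lost without any 1 of 8 of the 10 libraries (adjusted p of 0.0624 to 0.134 in limma; it held without normoxia replicate 4 or OGD replicate 3) and after thinning (0.134), and that of miR-19b-3p without OGD replicate 1 or 4 (0.05001 and 0.05045). In KO neurons the miR-19a-3p difference of 0.49 ± 0.20 did not pass (adjusted p of 0.0923), although it did in limma voom (0.0349) and when replicate numbers were fitted as a block (0.00589), and the groups overlapped at 52.5 to 91.4 and 70.6 to 162 CPM.

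miR-17-5p and miR-20a-5p, the most abundant products of miR-17-92, passed the test in KO neurons but not in WT neurons. miR-17-5p was at 1599.6, 1359, 1354, 1234 and 759 CPM in WT normoxia and 1821, 1396, 1351, 1507 and 1301 CPM in WT OGD, which overlap. It was at 1037, 1414, 1510.1, 1325 and 1135 CPM in KO normoxia and 1696, 1776, 2234, 1774 and 1666 CPM in KO OGD, which do not. The log2 differences were 0.26 ± 0.16 in WT (adjusted p of 0.264; 0.08 without WT normoxia replicate 5) and 0.52 ± 0.11 in KO (adjusted p of 0.00192).

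miR-20a-5p had the same shape. Its WT values were 2583, 2379, 2335, 2164 and 1299.5 CPM in normoxia and 2956, 2229, 2333, 2743 and 2147 CPM after OGD, with a log2 difference of 0.23 ± 0.15 (adjusted p of 0.304; 0.061 without WT normoxia replicate 5). Its KO values were 1563, 2342, 2445, 2181 and 2065 CPM, then 2754, 2837, 4076, 2931 and 2886 CPM, a log2 fold change of 0.55 ± 0.12 (adjusted p of 0.00340). Replicate 3 of KO OGD was far above the other 4 for both miRNAs; without it the log2 fold changes were 0.44 and 0.44 and both calls held (adjusted p of 0.0106 and 0.0165 in limma). miR-18a-5p, the least abundant member, ranged from 32.5 to 46.3 CPM in WT normoxia, 46.6 to 72.2 in WT OGD, 37.5 to 55.1 in KO normoxia and 58.8 to 79.8 in KO OGD, with log2 fold changes of 0.46 ± 0.16 (adjusted p of 0.0497) and 0.51 ± 0.13 (adjusted p of 0.00662). The WT call was lost without any 1 of 8 of the 10 libraries (adjusted p of 0.0597 to 0.118 in limma) and held without OGD replicate 2 or 5. It was also lost after thinning (log2 fold change 0.68, adjusted p of 0.0510) and with a pseudocount of 2 CPM (0.45, adjusted p of 0.0505).

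In KO neurons 7 of 10 members thus rose and 0 fell, by 1.42- to 1.87-fold, and for 7 of 10 the groups did not overlap. Among all 1479 features, 18.8% were called higher, 5.75% lower, and 15.3% did not overlap in the higher direction; among the 307 abundant features these shares were 36.2% and 31.9%. The median log2 fold change was again 0.53 over the members, beside 0.17 over the abundant features. Of the neuronal markers in KO, miR-124-3p stood at 3660 ± 377 CPM in normoxia and 5399 ± 481 CPM after OGD, miR-138-5p at 241 ± 17.2 and 441 ± 39.3 CPM, and miR-137-3p at 553 ± 77.9 and 714 ± 67.7 CPM. miR-128-3p stood at 63757 ± 15243 and 43234 ± 5069 CPM and miR-9-5p at 259214 ± 7552 and 274360 ± 24676 CPM, and their part was not tested here either. The 2 members that passed in neither genotype were miR-106b-3p and miR-25-3p, although miR-25-3p did pass in KO without KO OGD replicate 1 (0.20, adjusted p of 0.0401 in limma) and on the deposited score, before extremes were restored (adjusted p of 0.00366).

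**Figure D2:**
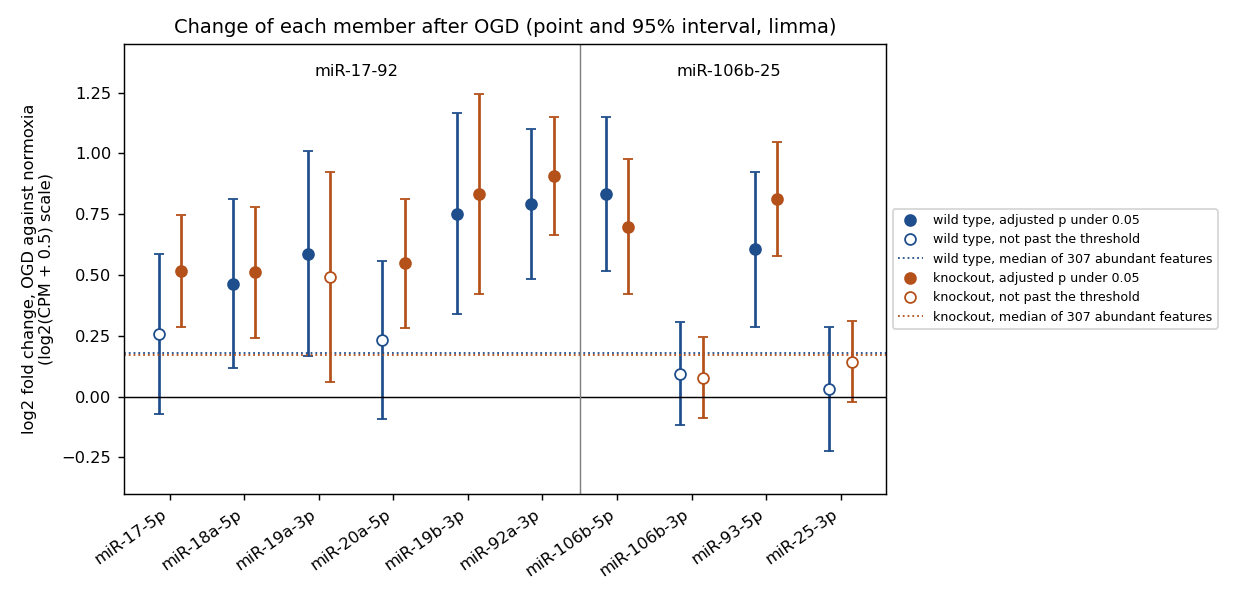
Log2 fold change of OGD against normoxia (vertical axis) for the 10 members in genomic order (horizontal axis), with 95% intervals, in WT and KO neurons; filled points passed an adjusted p of 0.05 in limma, and dotted lines mark the median of 307 abundant features. The points of miR-106b-3p and miR-25-3p lie under these medians, and miR-92a-3p, miR-106b-5p and miR-93-5p are filled in both genotypes.

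The direction of some members depended on how libraries were scaled, because the scalings place the bulk of features differently. The median log2 fold change of all features was 0.32 (WT) and 0.24 (KO) with the authors' factors, 0.20 and 0.10 with median-of-ratios scaling, -0.034 and -0.015 with quantile normalization, and -0.24 and -0.27 when each library was centred on its median. Over features, the median shift of a feature's own estimate was -0.15 and -0.16, -0.46 and -0.33, and -0.56 and -0.51 in the same order. With median-of-ratios scaling, 2 members were called higher in WT (miR-106b-5p and miR-92a-3p) and 3 in KO (these and miR-93-5p), against 12.8% and 11.8% of all features and 18.9% of the abundant ones in each genotype. With quantile normalization 2 were called in WT (miR-106b-5p and miR-93-5p), against 9.54% of all and 18.9% of abundant features, and 6 in KO, against 9.53% and 20.5%. With median centring no member was called higher in WT and 1 in KO (miR-92a-3p), against 7.31% and 7.57% of all features and 11.4% of the abundant ones, while miR-106b-3p and miR-25-3p were called lower in both genotypes, against 17.9% and 21.9% of all features and 51.5% and 52.8% of the abundant ones. At that setting the log2 differences were -0.47 and -0.53 in WT and -0.43 and -0.37 in KO for miR-106b-3p and miR-25-3p. miR-18a-5p, called higher in WT, was at -0.10 with median centring and -0.12 with quantile normalization, and miR-17-5p and miR-20a-5p, not called in WT, were at -0.30 and -0.33 with median centring and -0.022 and -0.046 with median-of-ratios scaling. Other uncalled estimates also fell under zero: miR-106b-3p and miR-25-3p with median-of-ratios scaling (-0.18 and -0.25 in WT, -0.21 and -0.15 in KO), miR-106b-3p with quantile normalization (-0.036 and -0.067) and miR-19a-3p in KO with median centring (-0.018). Under all 4 scalings the estimates of miR-106b-5p, miR-93-5p and miR-92a-3p were above zero in both genotypes and above those of miR-106b-3p and miR-25-3p.

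**Figure D3:**
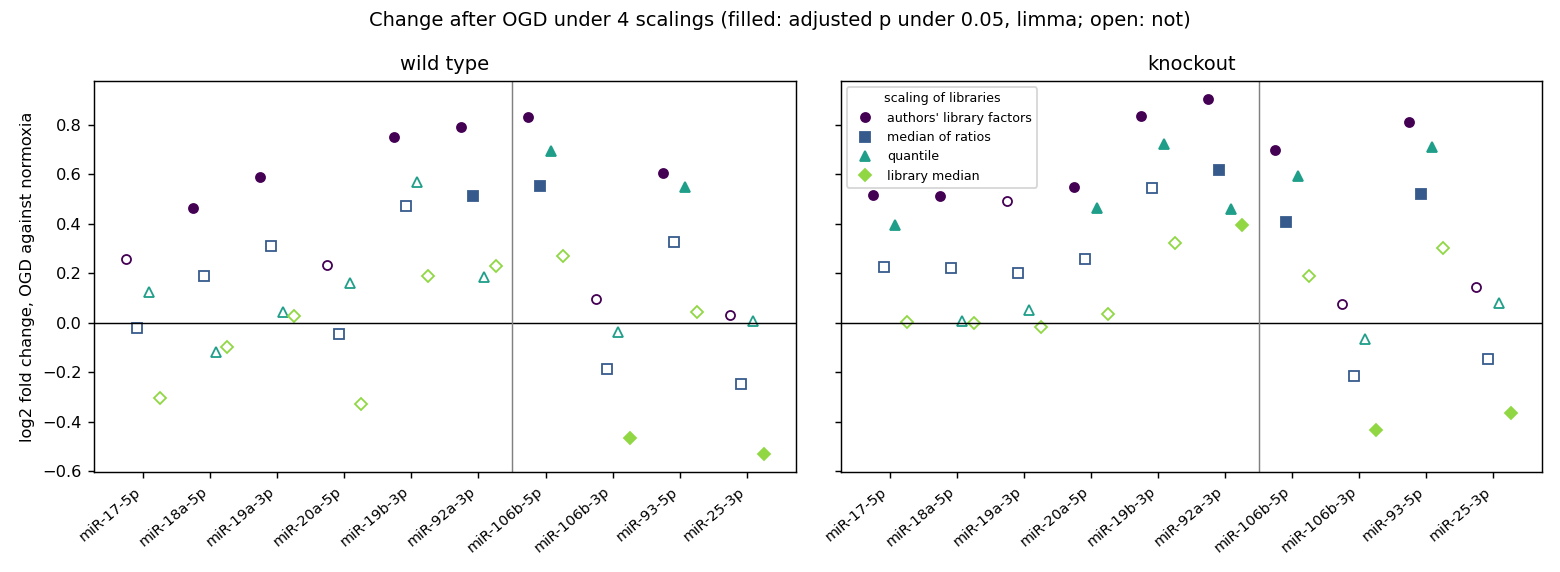
Log2 fold change of OGD against normoxia (vertical axis) of the 10 members (horizontal axis) under 4 scalings of the libraries, in WT (left) and KO (right); filled symbols passed an adjusted p of 0.05. The scalings move most members down together, and miR-106b-3p and miR-25-3p are the lowest symbols of miR-106b-25 under each of them.

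Ratios of members within a library do not change when all its features are multiplied by 1 factor, as quantile normalization does not do, and they describe the balance inside the clusters; 0 of the 32 tests on them passed after adjustment. The ratio of miR-106b-5p to miR-106b-3p, the arms of one hairpin, was 0.483, 0.581, 0.718, 0.585 and 0.371 in WT normoxia and 0.901, 0.825, 0.878, 1.05 and 0.828 in WT OGD. In KO neurons it was 0.458, 0.548, 0.668, 0.616 and 0.570 in normoxia and 0.744, 0.688, 1.09, 0.912 and 0.999 after OGD. Thus the 3p arm had more reads than the 5p arm in all 10 normoxia libraries, and the arms were closer to even in each OGD library than in any normoxia library of its genotype. The mean log2 ratio differed by 0.74 in WT (0.61 without WT normoxia replicate 5) and by 0.62 in KO.

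The ratio of miR-25-3p to miR-93-5p went the other way. It was 2.17, 2.33, 1.86, 2.10 and 2.76 in WT normoxia against 1.41, 1.71, 1.33, 1.48 and 1.55 in WT OGD, and 2.64, 1.81, 1.90, 2.07 and 2.33 against 1.22, 1.42, 1.19, 1.53 and 1.38 in KO. No OGD library reached the normoxia range of its genotype, and the log2 differences were -0.58 in WT (-0.50 without WT normoxia replicate 5) and -0.67 in KO. In shares of the 4 products of miR-106b-25, miR-25-3p had 55.7% ± 2.64 in WT normoxia and 47.3% ± 1.71 in WT OGD, and miR-93-5p 25.1% ± 2.53 and 31.8% ± 1.89. The KO shares were 54.6% ± 1.96 and 46.4% ± 2.01 for miR-25-3p and 25.7% ± 2.97 and 34.6% ± 2.17 for miR-93-5p.

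Inside miR-17-92, miR-17-5p and miR-20a-5p kept a nearly fixed ratio, with group means of 0.585 ± 0.0200 (WT normoxia), 0.595 ± 0.0311 (WT OGD), 0.608 ± 0.0405 (KO normoxia) and 0.595 ± 0.0318 (KO OGD). The within-group SD of their log2 ratio was 0.077, the lowest of the 45 pairs of members, while each miRNA alone had an SD of 0.27 and 0.28. The next pairs were miR-20a-5p with miR-93-5p (0.098) and miR-17-5p with miR-93-5p (0.107), both across clusters and within the AAAGUGC seed family, and then miR-106b-3p with miR-25-3p (0.116). Members with fewer reads, down to 75 in a library, carry more counting error. The part of that error, and of reads shared by near-identical miRNAs, in this ranking was not tested. The ratio of miR-19a-3p to miR-19b-3p was lower after OGD in KO neurons, at 0.158, 0.156, 0.158, 0.164 and 0.189 against 0.222, 0.212, 0.219, 0.202 and 0.190 in normoxia, with the highest OGD value just under the lowest normoxia value. In WT neurons it overlapped, at 0.166 to 0.200 against 0.163 to 0.270.

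For these ratios 8 pairs or sums were compared over 4 comparisons by exact two-sided permutation of libraries, 32 tests in all, where 5 against 5 libraries allow no p below 0.00794. Of the 32 tests, 5 reached that p: both arm ratios, both miR-25-3p to miR-93-5p ratios and the KO miR-19 ratio of OGD against normoxia. The Benjamini-Hochberg adjusted value of all 5 was 0.0508, so 0 of 32 passed the threshold of 0.05, and the differences are reported as missing it.

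**Figure D4:**
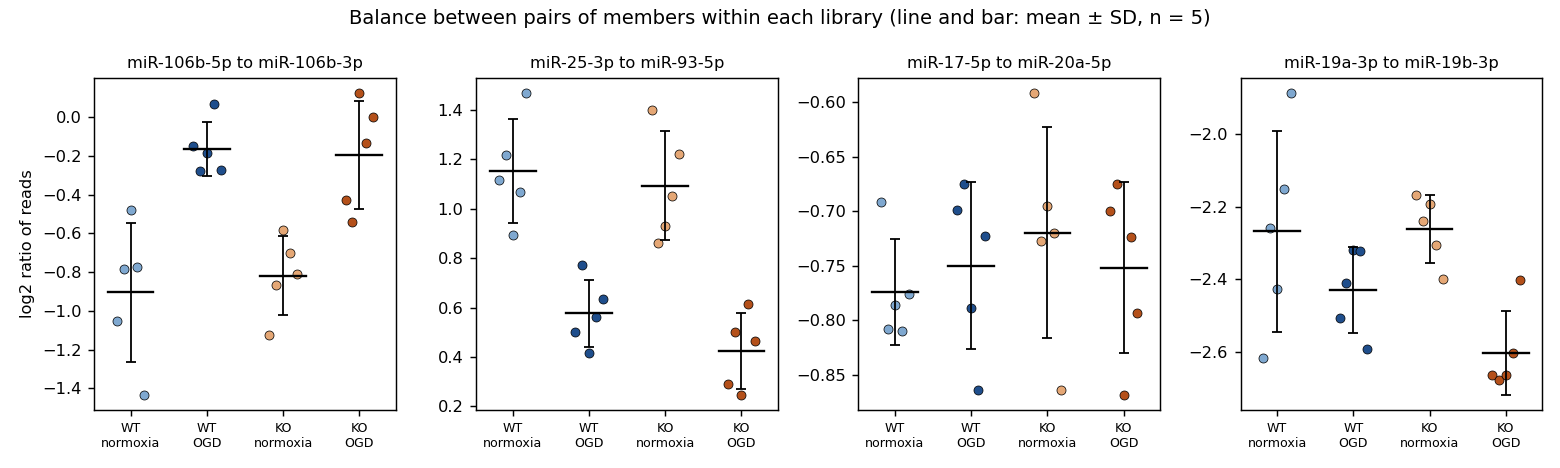
Log2 ratio of reads (vertical axes, which do not start at 0) between 4 pairs of members in each library of the 4 groups (horizontal axes), with the mean ± SD of 5 libraries. OGD and normoxia do not overlap for the first 2 pairs in either genotype, nor for the miR-19 pair in KO neurons, and the miR-17-5p to miR-20a-5p ratio overlaps in all groups.

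Summed over its members, miR-17-92 was at 3873 ± 882 CPM in WT normoxia, 4707 ± 638 in WT OGD, 3933 ± 619 in KO normoxia and 5854 ± 1039 in KO OGD. The sum for miR-106b-25 was 4973 ± 944, 5896 ± 421, 4854 ± 266 and 6338 ± 660 CPM in the same order. Both sums overlapped between conditions in WT neurons and did not overlap in KO neurons. The WT differences of the mean log2 sums, 0.31 for miR-17-92 and 0.26 for miR-106b-25, were 0.14 and 0.16 without WT normoxia replicate 5. Most of the miR-17-92 sum was miR-20a-5p, at 55.5% ± 0.913 in WT normoxia and 52.7% ± 1.27 in WT OGD, so the sum tracks the pair miR-17-5p and miR-20a-5p. The ratio of the 2 cluster sums overlapped between all groups compared (0.640 to 0.886, 0.714 to 0.887, 0.662 to 0.905 and 0.831 to 1.05).

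The second question of the design is whether loss of ciRS-7 alters the members. In normoxia 0 of 10 members differed between KO and WT at an adjusted p under 0.05, and 0 at an unadjusted p under 0.05, where 0% and 3.17% of all 1481 features did so in limma; limma voom also called 0. The 95% intervals of the log2 difference were widest for miR-19b-3p (0.27, -0.16 to 0.71) and narrowest for miR-106b-3p (0.00, -0.20 to 0.19), so differences within these bounds are not excluded. Without WT normoxia replicate 5, the miR-19b-3p difference was 0.081.

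After OGD 0 of 10 members differed between genotypes after adjustment, again beside 0% of all features. At an unadjusted p under 0.05, 4 of 10 members were higher in KO, against 7.29% of all features in either direction. These were miR-17-5p (log2 difference 0.31, 95% interval 0.10 to 0.52, adjusted p of 0.410 in limma), miR-20a-5p (0.31, 0.09 to 0.53, adjusted p of 0.410), miR-19b-3p (0.35, 0.01 to 0.69, adjusted p of 0.640) and miR-93-5p (0.22, 0.02 to 0.43, adjusted p of 0.618). All 5 KO libraries were above the WT mean for miR-17-5p, miR-20a-5p and miR-93-5p, and 3 of 5 for miR-19b-3p, while the groups overlapped for each. Without KO OGD replicate 3, the differences of miR-17-5p and miR-20a-5p were 0.24 and 0.21, that of miR-19b-3p 0.17 and that of miR-93-5p 0.14. miR-106b-5p and miR-106b-3p were close to equal in the genotypes, at -0.05 (-0.29 to 0.19) and -0.02 (-0.21 to 0.17).

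Whether the response to OGD differed by genotype was tested as an interaction over all 20 libraries. It passed for 0 of 10 members and 0% of 1481 features, and at an unadjusted p under 0.05 for 0 members and 5% of features; limma voom also called 0. The largest estimates were 0.32 for miR-20a-5p (95% interval -0.12 to 0.75) and 0.26 for miR-17-5p (-0.16 to 0.68), each with an adjusted p of 0.990 in limma. Without WT normoxia replicate 5 these were 0.49 and 0.43 (adjusted p of 0.307 and 0.334). That miR-17-5p and miR-20a-5p passed in KO and not in WT is therefore not shown to be a difference between genotypes.

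The strands opposite the members, which are mostly degraded after the guide strand is loaded, were rare. Of the 8 passenger strands, miR-17-3p averaged 17.6 CPM over the 20 libraries and the others 0.178 to 6.56 CPM, and miR-17-5p had 58.0 to 109 times the reads of miR-17-3p. In WT 0 of the 8 were called after OGD, where 18.7% of features rose, and their median log2 difference was -0.19 beside 0.32 over all features. miR-17-3p stood at 15.1 ± 4.34 CPM in WT normoxia and 20.2 ± 1.85 in WT OGD (adjusted p of 0.134). In KO, with a median of 0.23 beside 0.24, 1 of 8 rose, beside 18.8% of features: miR-93-3p, named because it was the single call. It ranged over 3.34 to 4.94 CPM in KO normoxia and 6.13 to 10.1 CPM in KO OGD. The log2 fold change was 0.90 ± 0.20 (adjusted p of 0.00278 in limma). That estimate was 0.94 after thinning all libraries to equal depth (adjusted p of 0.196), 0.39 with median centring (0.197) and 0.27 with quantile normalization (0.436). The WT ranges were 2.46 to 4.28 and 4.52 to 7.65 CPM, without overlap, and the adjusted p was 0.0550; it passed with the filter on low reads (0.0162), with limma voom (0.0313), with the replicate number as a block (0.0463), on the deposited score (0.0111) and without any 1 of 3 libraries (0.0341 to 0.0477 without WT normoxia replicate 1 or WT OGD replicate 4 or 5). Its guide, miR-93-5p, was called in both genotypes.

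The paralogous miR-106a-363 cluster of the X chromosome was low beside its relatives. Of its 10 listed products 8 were in the tables, and the highest, miR-20b-5p and miR-363-3p, averaged 14.3 and 12.2 CPM. miR-106a-5p, which differs from miR-17-5p by U10A alone, averaged 8.02 CPM and is named for that likeness. In KO neurons 1 of 8 rose after OGD, where 18.8% of all features did: miR-20b-5p, from 12.8 ± 2.29 to 19.03 ± 3.65 CPM (log2 fold change 0.55 ± 0.17, adjusted p of 0.0291). This call was lost with median-of-ratios scaling (0.27, adjusted p of 0.333), with quantile normalization (0.02), with median centring (0.04), after thinning, and without any 1 of 5 libraries (KO normoxia replicate 1 or 2, KO OGD replicate 1, 2 or 3; adjusted p of 0.0552 to 0.0852 in limma). In WT neurons 0 of 8 passed, beside 18.7% of all features called higher, and miR-20b-5p was at 12.9 ± 2.68 and 12.3 ± 2.80 CPM; with median centring it was called lower there (-0.63, adjusted p of 0.0480). miR-363-3p was at 10.003 ± 1.77 and 15.2 ± 4.46 CPM in WT and at 9.93 ± 1.451 and 13.7 ± 2.02 CPM in KO (adjusted p of 0.0967 and 0.0622). It passed in KO with the read filter (0.0262), limma voom (0.0378), the deposited score (0.00990) and without KO OGD replicate 4 (0.0347), and in WT with the replicate block (0.0305) and without WT OGD replicate 5 (0.0457). Its estimates fell under zero with median centring (-0.017 in WT and -0.069 in KO) and with quantile normalization (-0.058 and -0.12). The list's median log2 difference was 0.25 in WT and 0.20 in KO, close to that over all features.

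Among the 1248 features matched to a RefSeq sequence, 2 miRNAs outside both clusters and their paralogue carry a member's seed, both AUUGCAC. They are miR-92b-3p, which differs from miR-92a-3p by U10C and G21C over 21 bases, and miR-32-5p. miR-92b-3p averaged 1065 CPM, far above miR-92a-3p, and stood at 984 ± 153 CPM in WT normoxia and 1140 ± 65.5 CPM in WT OGD (adjusted p of 0.155), and at 993 ± 63.6 and 1145 ± 55.7 CPM in KO (adjusted p of 0.0541). In KO it was called higher with the read filter (0.0238), limma voom (0.0382), thinning (0.0344), the replicate block (0.0245), the deposited score (0.000756) and without KO normoxia replicate 2 or KO OGD replicate 1 (0.0344 and 0.0315), and called lower with median centring (-0.30, adjusted p of 0.0225). In WT it was at -0.34 with median centring and -0.055 with median-of-ratios scaling. miR-32-5p rose in WT, from 184 ± 21.7 to 235 ± 29.2 CPM (log2 fold change 0.35 ± 0.12, adjusted p of 0.0485), a call lost under all 3 other scalings, after thinning (0.123), with a pseudocount of 2 CPM (0.0529) and without any 1 of 8 of the 10 libraries (adjusted p of 0.0584 to 0.112). In KO it stood at 185 ± 22.2 and 221 ± 21.0 CPM (adjusted p of 0.0802), and passed with the read filter (0.0467), the replicate block (0.0236), the deposited score (0.00256) and without KO normoxia replicate 3 or KO OGD replicate 4 (0.0342 and 0.0354). Its KO estimate was under zero with the other 3 scalings, at -0.031 (median of ratios), -0.25 (median centring) and -0.016 (quantile). The miRNAs with the seed AUUGCAC thus had estimates from 0.03 for miR-25-3p to 0.79 for miR-92a-3p in WT. At the authors' scaling no passenger strand, miR-106a-363 product or seed relative passed between genotypes (smallest adjusted p of 0.410 in limma), while on the deposited score miR-20b-5p was called higher in KO after OGD (0.61, adjusted p of 0.0387).

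Among 228 other miRNAs with a mean of at least 6 log2 CPM, those whose log2 level was most like the mean of miR-17-92 over the 20 libraries were miR-16-5p (Pearson r = 0.931), miR-362-3p (0.931) and miR-30b-5p (0.903). For miR-106b-25 they were miR-362-3p (0.932), miR-16-5p (0.928) and miR-322-5p (0.909). The points share libraries, scaling and the contrast of OGD with normoxia, and within groups these r were between 0.698 and 0.852. miR-16-5p stood at 1597 ± 218 CPM in WT normoxia, 2618 ± 181 in WT OGD, 1679 ± 112 in KO normoxia and 2865 ± 418 in KO OGD.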

How the data were processed

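Small RNA was sequenced from 20 neuron cultures. Per the labels' protocols, TRIzol extraction and a DNase step preceded library preparation with the NEBNext small RNA kit and size selection. The submitters' processing notes name the build mm10; aligner, miRBase release and counting of shared reads are not given in the sources used here. The authors deposited 6 tables, 1 per pair of groups, whose values are a score named log CPM but reaching 37.3, above the largest possible log2 CPM of 19.9. From the values, each score was found to be a read number times a library factor, raised to a power of 0.106 to 0.118, with the extremes in each group of 5 moved 64% of the way to their neighbour. Undoing this gave whole reads for 100% of values (tolerance 0.05; largest distance 1.36e-06), against 73.5% to 75.4% when extremes were not restored, and the same reads in every table (59070 comparisons, 0 differences). On simulated data 88690 of 88690 values came back. No step of this is recorded in labels or headers.

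Effective library sizes from the authors' factors were 0.923 to 1.08 times the total reads. A floor of 3 reads is 0.249 to 2.55 CPM, covering counting error only; no molecular identifiers are mentioned. No pair of replicates agreed within sampling noise (lowest chi-square per degree of freedom 19.4). Levels were tested with limma 3.58.1 (R 4.3.3; lmFit, eBayes with trend) on log2(CPM + 0.5), per pair of groups without a filter, and in all 20 libraries for the interaction. On simulated data, limma recovered 54% to 66% of 1.5-fold and 99% of 2-fold changes in the OGD comparisons, and 48% to 59% and 94% to 99% in those of genotype; false calls were 6.71% (WT) and 10.3% (KO) of calls for OGD and 2.47% to 2.74% for genotype. That simulation gave every feature the same spread between libraries beyond counting error. The members' own within-group log2 SDs ran from 0.11 (miR-106b-3p) to 0.41 (miR-19b-3p), so the simulated rates are not rates for each member. Ratios used exact permutation tests.

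The members, lists, tests and settings were chosen with earlier results of these data known. Named beside the 10 members were passenger strands, the miR-106a-363 cluster, seed relatives, and per cluster the 3 miRNAs with the most similar pattern. Sequences are from RefSeq (10 of 10 members and 1248 of 1481 features matched) and loci from GENCODE M21. The alternatives were other pseudocounts, a read filter, 3 other scalings, limma voom, thinning to equal depth, the unrestored score, a replicate block, and each replicate left out.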

Additional observations from a re-analysis of the deposited data

Results flagged for a closer look

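Among 80 groups of 5 values tested (10 members, 8 ratios and 2 sums in 4 groups), 6 had 1 library whose distance from its nearest neighbour exceeded Dixon's critical value of 0.710 of the range; chance flags about 1 in 20 groups. In KO OGD, replicate 3 stood above the other 4 libraries for miR-17-5p (2234 CPM against 1666 to 1776), miR-20a-5p (4076 CPM against 2754 to 2931) and the miR-17-92 sum that these 2 dominate (7678 CPM against 5125 to 5653). In the same group, replicate 5 had a miR-19a-3p to miR-19b-3p ratio of 0.189 against 0.156 to 0.164. In WT normoxia, replicate 1 had a miR-17-5p to miR-20a-5p ratio of 0.619 against 0.570 to 0.584. Replicate 5 of WT normoxia, which also lay apart on the first principal component, had a miR-92a-3p to miR-17-5p ratio of 0.0707 against 0.0410 to 0.0450.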

How the results depend on the processing

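For OGD against normoxia in WT, 6 members were called; the count was 2 with median-of-ratios scaling, 2 with quantile normalization, 2 (both lower) with median centring, and 3 after thinning to equal depth, beside 23.1%, 21.3%, 22.5%, 25.2% and 15.7% of all features in either direction. In KO 7 were called, and 3 with median-of-ratios scaling, 3 with median centring, 6 with quantile normalization and 6 after thinning, which ended the miR-19b-3p call, beside 24.5%, 22.7%, 29.5%, 22.1% and 16.6%. Where a call was made with the authors' scaling or with the scaling named, direction turned under centring for miR-18a-5p (-0.10), miR-106b-3p (-0.47) and miR-25-3p (-0.53) in WT and for miR-106b-3p (-0.43) and miR-25-3p (-0.37) in KO, and under quantile normalization for miR-18a-5p in WT (-0.12). Among the relatives it turned under centring for miR-32-5p in WT (-0.21) and miR-92b-3p in KO (-0.30). Counting uncalled estimates too, 5 members in WT and 3 in KO had the other sign with centring, 4 and 2 with median-of-ratios scaling, and 2 and 1 with quantile normalization. Pseudocounts of 0.1 and 2 CPM, a filter of 10 reads in 5 libraries and limma voom left both counts within 1 call. Over all features, however, limma voom called 693 in WT and 784 in KO, against 341 and 363, while among the 307 abundant ones it called 148 and 178, against 139 and 160. Leaving out each replicate gave 3 to 5 calls in WT, with 3 without WT OGD replicate 1 or replicate 4, and 7 to 8 in KO, beside 17.7% to 23.1% and 19.8% to 25.2% of all features. On the unrestored score 1 member differed between genotypes after OGD (miR-17-5p, adjusted p of 0.00762 in limma), beside 4.86% of all features, a score whose extremes were drawn in and whose spread is therefore understated. The log2 miR-106b-5p to miR-106b-3p ratio of KO against WT in normoxia was -0.018 after thinning and ranged from -0.046 to 0.19 over left-out replicates; after OGD it ranged from -0.11 to 0.055. The log2 ratio of cluster sums ranged from -0.023 to 0.094 for OGD in WT and from -0.0082 to 0.13 for genotype in normoxia. The differences of the cluster sums moved by less than 1 SD when each replicate was left out, but in WT OGD they ranged from 0.14 to 0.38 for miR-17-92 and from 0.16 to 0.34 for miR-106b-25, lowest without WT normoxia replicate 5. A replicate block leaves them as they are; other scalings and thinning were not run on the sums.

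With the replicate number as a block, limma called 6 members in WT and 8 in KO, miR-19a-3p being added (adjusted p of 0.00589), beside 26.3% and 27.2% of all features, and 0 in the genotype comparisons. Same-numbered libraries did not deviate together throughout (correlations of -0.17 to 0.66 in WT and -0.21 to 0.49 in KO). The same-number correlation was above that with any other number for replicates 1, 2, 4 and 5 but not 3 in WT. In KO this held for replicates 1, 3 and 4 but not 2 and 5. Whether the numbers pair the samples is not settled by this, and the main tests do not pair them. A paired sign-flip test of the ratios cannot go below a p of 0.0625. The fewest reads of a member in a library, which set the counting error, were 75 for miR-18a-5p.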
